A study of Mus musculus with 16 samples.

Results

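The receptors for the constant part of IgG were followed in hamstring muscle of mice injected with histidyl-tRNA synthetase (HRS), the autoantigen recognised by anti-Jo-1 antibodies. Members were taken by gene symbol from the table of normalized counts, and all 6 were found among its 26382 genes. They are *Fcgr1*, *Fcgr3* and *Fcgr4*, the activating receptors; *Fcer1g*, the signalling chain that these receptors share; *Fcgr2b*, the inhibitory receptor; and *Fcgrt*, the neonatal Fc receptor (FcRn). Each of the 6 was among the 16414 genes with a mean of at least 0.5 normalized counts that entered the tests.

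Fc gamma receptors let leukocytes sense IgG that has bound its antigen. The activating receptors bind the antibody outside the cell and signal through an ITAM, a tyrosine motif in the Fcer1g chain, which recruits the kinase Syk and starts phagocytosis and cytokine release. *Fcgr2b* carries an ITIM in its own tail, which recruits the lipid phosphatase SHIP1 (*Inpp5d*) and dampens the same signal, so that the level of activating against inhibitory receptor on a cell helps to set its response to immune complexes. *Fcgr1* binds monomeric IgG with high affinity, *Fcgr4* prefers IgG2a/c and IgG2b, and *Fcgr3* binds immune complexes with low affinity. FcRn pairs with beta-2-microglobulin (*B2m*), binds IgG in acidic endosomes and returns it to the circulation, and it is made by endothelium as well as by macrophages.

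All 9 mice were female C57BL/6 animals of 8 to 10 weeks, and muscle was taken 14 days after injection for poly(A) RNA sequencing. Mice m862 to m866 gave 1 library from the left leg, titled as injected with the antigen and labelled HRS at 3 to 5 mg/mL (HRS legs, n = 5), and 1 from the right leg, titled as injected with PBS (contralateral PBS legs, n = 5). From mice m867 and m868, given only PBS, both legs were sequenced (PBS-only legs, n = 4). A further 2 libraries, 1 each from m860 and m861, have no leg in their labels (HRS-MBP): their titles name an MBP fusion of the antigen at 2 to 3 mg/mL, whereas their treatment label reads HRS at 3 to 5 mg/mL. The general protocol describes injection of HRS on both sides, which the titles of mice m862 to m866 do not, and the titles were followed. The 4 PBS-only legs come from 2 mice and the HRS-MBP group from 2 mice, so these groups hold little information on the spread between animals.

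Most low values of a library were whole multiples of 1 step, and taking that step as 1 read gave depths of 8595360 to 73939154 reads, the lowest in the right and left legs of PBS-only mouse m868 (8595360 and 17184650 reads). The HRS leg of m866 stood apart from the other HRS legs. Its mitochondrial share was 11.1%, against 3.41% to 6.29% in the other 4 and 9.69% to 13.1% in the PBS libraries, and its summed muscle fibre markers reached 159000 normalized counts, against 38300 to 93600. Values without this leg are given beside the main comparison. Because the samples are bulk muscle, more cells of a type and more RNA per cell cannot be told apart in any value given here.

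Of the members, 4 lie together on chromosome 1 in GRCm38. *Fcgr2b* (chr1:170958617-170976547, minus strand), *Fcgr4* (chr1:171018920-171029761, plus strand) and *Fcgr3* (chr1:171051174-171064935, minus strand) are neighbours among the protein-coding genes of the table, 42373 and 21413 bases apart, and *Fcer1g* (chr1:171229572-171234365, minus strand) lies on the same chromosome. *Fcgr1* (chr3:96282909-96293969, minus strand) is on chromosome 3 and *Fcgrt* (chr7:45092990-45103851, minus strand) on chromosome 7. The principal transcripts have 6 exons and 2589 bases for *Fcgr1*, 5 and 1347 for *Fcgr3*, 5 and 1256 for *Fcgr4*, 5 and 674 for *Fcer1g*, 8 and 3544 for *Fcgr2b*, and 7 and 1770 for *Fcgrt*.

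Because 5 of the 6 genes moved together, the sequence before their starts was read from RefSeq (GRCm38.p6), where each of the 6 members had an entry (for *Fcgr3*, the first of 2). In the 250 bases before the start, 2 short motifs were searched on both strands: GAGGAA, a purine-rich core used by the myeloid factor PU.1, which reads TTCCTC on the other strand, and GAAA, any 2 bases and GAAA, the core of the interferon-stimulated response element (ISRE). The 3 activating receptors each held a match before these starts, and the 120 bases before their starts are shown in the direction of the gene with matches in capitals.
Fcgr1, chr3:96293970-96294089, minus strand: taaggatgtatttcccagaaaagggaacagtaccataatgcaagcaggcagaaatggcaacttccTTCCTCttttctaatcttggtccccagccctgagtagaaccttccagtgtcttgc
Fcgr3, chr1:171059404-171059523, minus strand: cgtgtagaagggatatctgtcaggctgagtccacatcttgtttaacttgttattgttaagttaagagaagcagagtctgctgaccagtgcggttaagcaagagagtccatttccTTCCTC
Fcgr4, chr1:171018806-171018925, plus strand: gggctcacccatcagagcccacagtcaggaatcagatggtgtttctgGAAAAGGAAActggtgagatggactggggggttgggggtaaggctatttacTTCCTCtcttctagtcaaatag
The *Fcgr3* start used is that of its principal transcript, which lies inside the annotated span of the gene, and the other RefSeq start is 9 bases further in, with the same match 15 bases before it. The TTCCTC match began 55 bases before the start in *Fcgr1*, 6 in *Fcgr3* and 22 in *Fcgr4*. *Fcgr4* alone among the members held the ISRE core, as GAAAAGGAAA at 73 bases. No match to these letters was found before *Fcgr2b*, *Fcer1g* or *Fcgrt*, and none of the matches overlapped another. Looser forms of either motif were not searched, so the absence holds for these letters only. Among 32851 RefSeq promoters of the same length, 23.3% held GAGGAA and 2.98% the ISRE core, so a match is a description of the sequence and not a site of binding.

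*Fcgr2b* and *Fcgr3* also share coding sequence, which bears on how far their values are separate. The longest identical stretch of their principal transcripts is 129 bases long and lies in exons 3 and 4 of both genes, at chr1:170967980-170968081 and chr1:170966674-170966700 for *Fcgr2b* and at chr1:171057691-171057792 and chr1:171054167-171054193 for *Fcgr3*. All 129 bases are coding in both.
Stretch shared by Fcgr2b and Fcgr3: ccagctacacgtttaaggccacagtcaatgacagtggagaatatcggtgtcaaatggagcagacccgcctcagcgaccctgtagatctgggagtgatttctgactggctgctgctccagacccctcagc
Of the windows of 100 bases in *Fcgr3*, 3.53% occurred in a transcript of *Fcgr2b*, and 1.28% of those in *Fcgr2b* occurred in a transcript of *Fcgr3*. With windows of 50 bases these shares were 12.8% and 4.75%. Of the windows of 50 bases in *Fcgr2b*, 11.4% occurred in some other annotated gene. No window of *Fcgr1*, *Fcgr4*, *Fcer1g* or *Fcgrt* occurred in another gene. How the counting treated reads that fit both genes is not given in the sources used here.

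The comparison of HRS legs with the contralateral PBS legs asks how the receptors differ between antigen and vehicle within the same animals. All 3 activating receptors, the shared chain and the inhibitory receptor rose, by 9.60-fold to 53.3-fold between group means, while *Fcgrt* did not pass the test. Genes were called at a Benjamini-Hochberg adjusted p under 0.05 over all tested genes (limma) with an absolute log2 fold change above 1. The fit had no term for the mouse, so the p-values below are not those of a paired test. With mouse as a fixed block, the same 5 members were called. Their limma adjusted p values then ran from 0.000516 for *Fcgr4* to 0.00401 for *Fcgr2b*. The 5 called members compare with 16.9% of all tested genes called higher.

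*Fcgr1*, the high-affinity receptor, was at 31.8, 28.9, 58.5, 46.1 and 13.5 normalized counts in the HRS legs of m862 to m866, and at 2.21, 2.42, 3.19, 2.79 and 2.69 in their PBS legs. Every HRS leg lay above every PBS leg, and m866 was the lowest. The log2 fold change was 3.37 (SE 0.298, limma adjusted p = 1.93e-06), with 5.00-fold in m866 and 11.9-fold to 18.4-fold in the other mice.

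*Fcgr3*, the low-affinity activating receptor, was at 57.7, 84.4, 133, 74.1 and 23.1 in the HRS legs and at 4.03, 8.82, 8.74, 6.73 and 10.1 in the PBS legs of the same mice. The groups did not overlap, although the PBS leg of m866 was the highest of its group and its HRS leg the lowest. The fold change was 3.05 on the log2 scale (SE 0.355, limma adjusted p = 1.15e-05), and the fold within a mouse ran from 2.29 in m866 to 15.2 in m864.

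*Fcgr4*, the receptor for IgG2a/c and IgG2b, changed most. Its level was 35.8, 27.2, 91.1, 27.4 and 14.7 in the HRS legs and 0.641, 0.593, 1.25, 0.50 and 0.70 in the PBS legs. It was close to absent from PBS muscle, with the equivalent of 17 to 36 reads a library there and of 472 to 5099 reads in HRS legs. The log2 fold change of 4.77 (SE 0.347, limma adjusted p = 1.16e-06) ranked 19th from the top of 16414 genes, and the fold within a mouse ran from 21 in m866 to 73.0 in m864.

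*Fcer1g*, which carries the ITAM of all 3 receptors, was at 72.7, 75.8, 146, 67.6 and 33 in the HRS legs and at 2.31, 4.43, 7.62, 4.18 and 6.44 in the PBS legs. The order of the HRS legs was led by m864 and closed by m866, as for *Fcgr1*, *Fcgr3* and *Fcgr4*. Between groups this was a log2 fold change of 3.79 (SE 0.328, limma adjusted p = 1.93e-06).

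*Fcgr2b*, the inhibitory receptor, was at 73.9, 97.1, 170, 87.7 and 21.1 in the HRS legs and at 5.10, 10.2, 12.6, 8.42 and 10.5 in the PBS legs. The groups did not overlap, but the HRS leg of m866 was only 2.01-fold above its PBS leg, against 9.52-fold to 14.5-fold in the other mice. Its log2 fold change was 2.98 (SE 0.425, limma adjusted p = 6.31e-05), the smallest of the 5 called members. Without the HRS leg of m866 this order did not hold, with *Fcgr2b* at 3.43 and *Fcgr3* at 3.41.

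*Fcgrt* was at 79.3, 98.1, 94.7, 82.6 and 65.8 in the HRS legs and at 65.6, 73.1, 62.7, 76.8 and 103 in the PBS legs. The groups overlapped, with the HRS leg higher in 4 of 5 mice and lower in m866, at 0.639-fold. This gave a log2 fold change of 0.15 with a 95% interval of -0.15 to 0.44 (limma adjusted p = 0.36), so a rise of the size of the other members lies outside the interval.

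**Figure D1:**
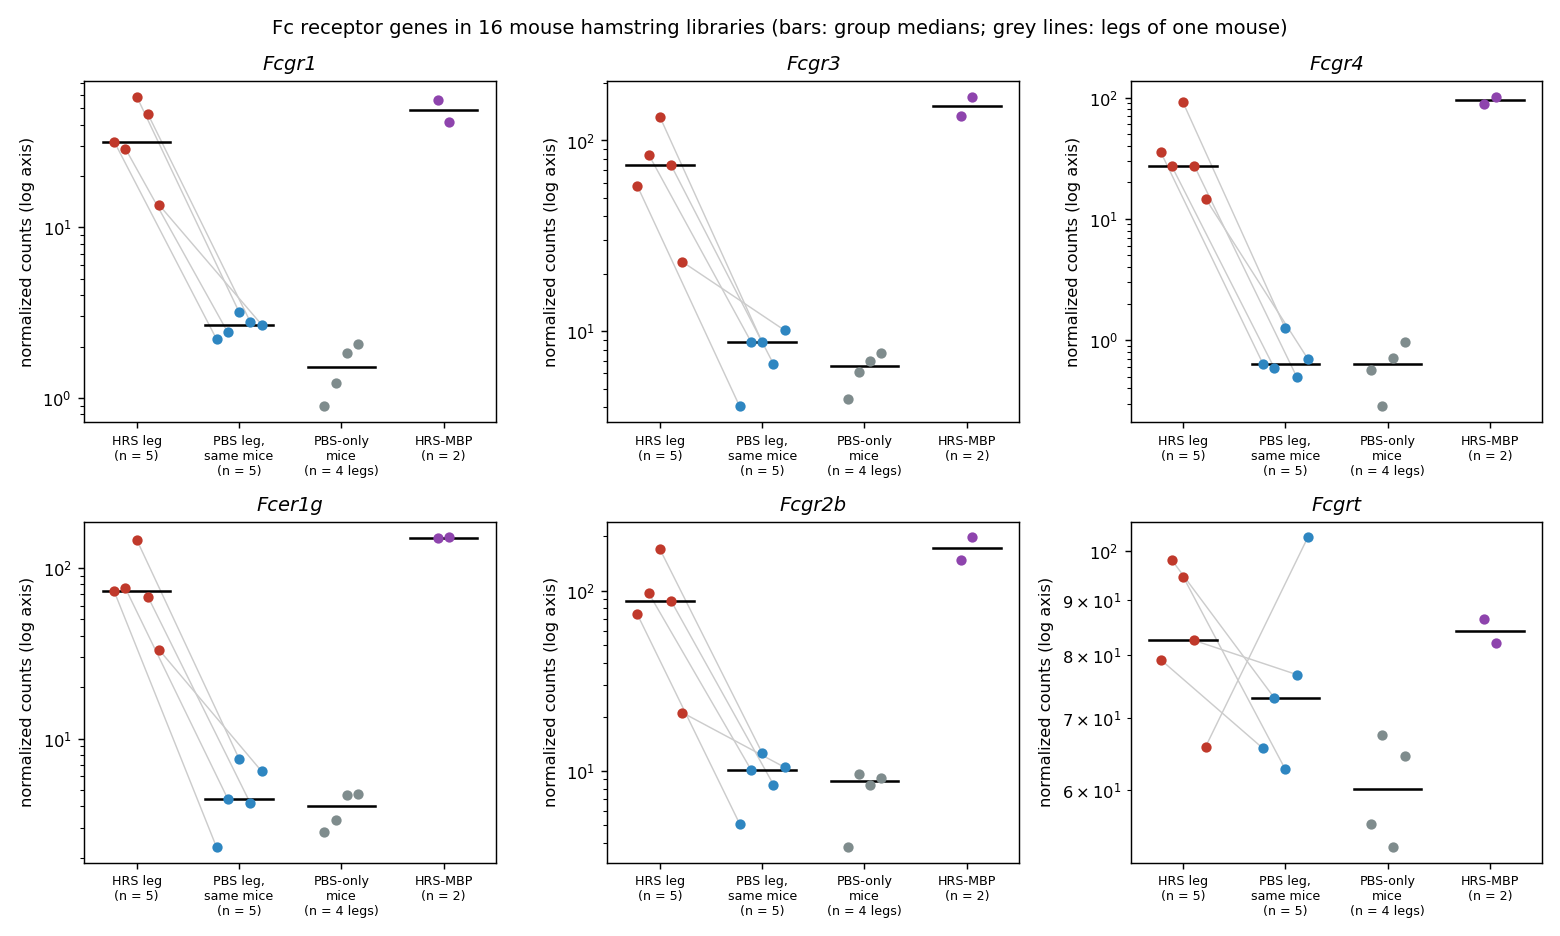
Normalized counts of the 6 genes in each of the 16 libraries, on log axes, with points for libraries by group, bars for group medians and grey lines joining the legs of 1 mouse. For 5 genes every HRS leg lies above every PBS leg (for *Fcgr4*, 14.7 and above against 1.25 and below), whereas *Fcgrt* stays between 53.1 and 103 in all libraries.

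In all, 5 of 6 members had every HRS leg above every contralateral PBS leg, as had 18.3% of the tested genes. Without the HRS leg of m866 the same 5 were called, with log2 fold changes of 3.68 for *Fcgr1*, 3.41 for *Fcgr3*, 5.05 for *Fcgr4*, 4.07 for *Fcer1g* and 3.43 for *Fcgr2b*, and *Fcgrt* stood at 0.23.

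Against the PBS-only legs, the same 5 genes were called higher in HRS legs, where 18.9% of tested genes were. *Fcgr4* was at 0.566 and 0.284 in the left and right legs of m867 and at 0.717 and 0.970 in those of m868, which are 8 to 14 reads a library, and its log2 fold change was 4.90 (SE 0.368, limma adjusted p = 9.05e-07). *Fcgr1* was at 0.890 and 1.22 in m867 and at 1.83 and 2.06 in m868, and its log2 fold change was 4.07 (SE 0.316, limma adjusted p = 1.03e-06). All 4 PBS-only legs lay below the lowest HRS leg for both genes.

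For the other called members the PBS-only legs were also below all HRS legs, which makes 5 of 6 members, beside 26.6% of tested genes. *Fcgr3* ranged from 4.42 to 7.64 there (log2 fold change 3.29, limma adjusted p = 9.54e-06), *Fcer1g* from 2.83 to 4.73 (4.05, limma adjusted p = 1.63e-06) and *Fcgr2b* from 3.79 to 9.62 (3.26, limma adjusted p = 4.6e-05). *Fcgrt* was at 53.1 to 67.5 and overlapped the HRS legs. Its log2 fold change of 0.47 (95% interval 0.16 to 0.78) had a limma adjusted p of 0.0125 but did not reach the fold threshold. This comparison and the preceding one share the HRS legs.

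The contralateral PBS legs were set against PBS-only legs to ask whether a leg given PBS differs when the opposite leg received HRS. No member was called, and 1 of the 16414 genes (0.00609%) was, with 720 genes (4.39%) higher in contralateral legs at an unadjusted p under 0.05 (limma), among them 2 of the 6 members, *Fcgr1* and *Fcgrt*. *Fcgr1* was the member with the largest difference. Its 5 contralateral legs, at 2.21 to 3.19, all lay above the 4 PBS-only legs, at 0.890 to 2.06, as did 2.3% of tested genes. The log2 fold change was 0.69 (95% interval 0.02 to 1.37), with a limma unadjusted p of 0.0438 and an adjusted p of 0.9. *Fcgrt* had a log2 fold change of 0.32 (95% interval 0.01 to 0.63, limma adjusted p = 0.905) with overlapping groups. The other 4 members had log2 fold changes of 0.13 to 0.28, and their intervals reached up to 1.24 for *Fcgr2b*, so a difference below about that size was not resolved.

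In the HRS-MBP libraries the same 5 genes were called higher than in PBS-only legs, where 20.7% of tested genes were. *Fcgr4* was at 89.2 in m860 and 102 in m861, a log2 fold change of 6.44 (SE 0.475, limma adjusted p = 9.79e-07) and 151-fold between group means. With the PBS-only level of *Fcgr4* this low, the log2 fold change was 7.12 with a constant of 0.1 and 5.22 with a constant of 2. *Fcgr1* was at 55.8 and 41.4 (4.64, limma adjusted p = 1.87e-06), *Fcgr3* at 134 and 170 (4.50, limma adjusted p = 5.37e-06), *Fcer1g* at 149 and 151 (5.12, limma adjusted p = 1.87e-06) and *Fcgr2b* at 148 and 198 (4.46, limma adjusted p = 2.46e-05). Both libraries were above every PBS library for these 5 genes. *Fcgrt* was at 86.4 and 82.2, a log2 fold change of 0.49 (limma adjusted p = 0.0386) that stayed under the fold threshold, and both libraries lay above all PBS-only legs for each of the 6 members, beside 39.8% of tested genes.

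Between the HRS-MBP libraries and the HRS legs no member was called, against 0.463% of tested genes. At an unadjusted p under 0.05 (limma), 4 of 6 members were higher in HRS-MBP, as were 8.39% of tested genes. *Fcgr4* had the largest difference, with a log2 fold change of 1.54 (95% interval 0.56 to 2.52), a limma unadjusted p of 0.00419 and an adjusted p of 0.156. Its HRS leg of m864, at 91.1, lay within the HRS-MBP values. *Fcgr3* (1.22, limma adjusted p = 0.261), *Fcgr2b* (1.20, limma adjusted p = 0.345) and *Fcer1g* (1.07, limma adjusted p = 0.283) had fold changes above the threshold with adjusted p values that missed it, and both HRS-MBP libraries were above every HRS leg for *Fcgr3* and *Fcer1g*, as for 7.1% of tested genes. Without the HRS leg of m866 the log2 fold changes were 0.85 for *Fcgr3*, 0.75 for *Fcgr2b* and 0.80 for *Fcer1g*, all under the fold threshold, and 1.26 for *Fcgr4* (limma adjusted p = 0.116). Without the HRS leg of m864, *Fcgr4* (1.91, limma adjusted p = 0.00374) and *Fcer1g* (1.33, limma adjusted p = 0.0497) were called.

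**Figure D2:**
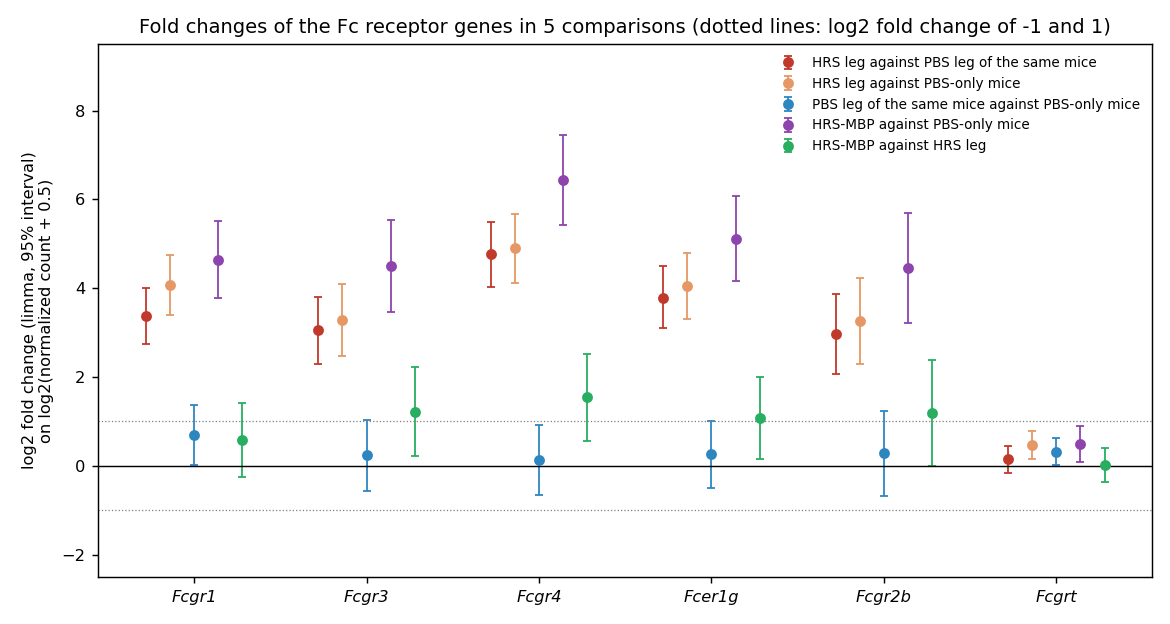
Log2 fold changes of the 6 genes in the 5 comparisons, with 95% intervals from limma on log2(normalized count + 0.5); dotted lines mark log2 fold changes of -1 and 1. The comparisons of HRS legs or HRS-MBP with PBS lie between 2.98 and 6.44 for 5 genes, and *Fcgrt* lies between 0.02 and 0.49 in all 5 comparisons.

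The balance of activating against inhibitory receptor was measured in each library as log2 of (activating receptor + 0.5) over (*Fcgr2b* + 0.5), in normalized counts. The 3 ratios were tested in 5 comparisons by exact permutation of the libraries, two-sided, with adjustment over the 15 tests. Such a ratio depends on how its library was scaled only through the constant, which is of the size of the *Fcgr4* values in PBS libraries (0.284 to 1.25). It is not a ratio of molecules, because the transcripts differ in length.

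*Fcgr4* relative to *Fcgr2b* had the largest of the 3 differences, but it missed the threshold after adjustment. The ratio of their normalized counts was 0.485, 0.280, 0.535, 0.313 and 0.698 in the HRS legs of m862 to m866, and 0.126, 0.0582, 0.0986, 0.0594 and 0.0666 in their PBS legs. The groups did not overlap, and the HRS leg was higher in 5 of 5 mice. With 0.5 added to both genes, the mean difference was 1.79 on the log2 scale, which is 3.45-fold. The plain ratios just given differ by more than that in each of the 5 mice, because the constant is close to the *Fcgr4* level of PBS legs. The exact permutation p was 0.00794, the smallest that 5 against 5 libraries can give, and 0.0595 after adjustment over 15 tests, which misses 0.05. The test against PBS-only legs was also at 0.00794. Even so, an adjusted p under 0.05 needed further tests among the 15 to come out about as low. The miss therefore does not show that the ratio is unchanged. Exact sign flips within mice gave p = 0.0625, also the smallest possible with 5 mice. Within mice the difference ran from 1.26 in m862 to 2.69 in m866, and without the HRS leg of m866 the mean difference was 1.62.

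The size of this difference rests in part on the constant added to the low *Fcgr4* values of PBS muscle. With a constant of 0.1 the difference was 2.31 and with a constant of 2 it was 0.88 (adjusted p = 0.357, exact permutation). Against PBS-only legs, where the ratio was 0.150 and 0.0295 in the left and right legs of m867 and 0.0857 and 0.105 in those of m868, the difference was 1.64 with the same exact permutation p of 0.00794 and adjusted p of 0.0595. These 4 legs come from 2 mice and were permuted as separate libraries. With the legs of each mouse averaged, the adjusted p was 0.357, and 5 against 2 allow no exact permutation p below 0.0476. In HRS-MBP the ratio was 0.602 and 0.516, above all PBS libraries and within the HRS legs. The difference from PBS-only legs was 1.98, where the exact permutation p of 0.0667 is the smallest that 2 against 4 libraries allow. By mouse this is 2 against 2, which allows none below 0.333 (adjusted p = 0.714). Grouping by the treatment label alone, a choice made after seeing the data, set 7 HRS against 9 PBS libraries and gave a difference of 1.82 (exact permutation p = 8.74e-05, the smallest possible, adjusted over 3 tests 0.000262), with legs of the same mice counted as separate libraries.

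*Fcgr3* relative to *Fcgr2b* was not shown to differ. Their ratio was 0.781, 0.870, 0.782, 0.845 and 1.10 in the HRS legs and 0.790, 0.865, 0.691, 0.80 and 0.963 in the PBS legs of the same mice, and the groups overlapped. The mean difference was 0.07 (exact permutation p = 0.579, adjusted p = 0.937), and within mice it ran from -0.05 to 0.18. The HRS-MBP libraries were at 0.907 and 0.856, and the PBS-only legs, at 0.636 to 1.17, spanned all of these values. The shared coding stretch shown above concerns this pair, and the part of reads assigned to the wrong gene was not tested.

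*Fcgr1* relative to *Fcgr2b* was 0.431, 0.298, 0.344, 0.526 and 0.639 in the HRS legs and 0.433, 0.238, 0.252, 0.332 and 0.256 in the PBS legs. It was higher in 4 of 5 mice, and the groups overlapped. The mean difference of 0.39 did not pass (exact permutation p = 0.159, adjusted p = 0.397). Against PBS-only legs, at 0.127 to 0.235, the difference was 0.81 (exact permutation p = 0.0317, adjusted p = 0.159), and the contralateral PBS legs were 0.41 above the PBS-only legs (exact permutation p = 0.159). In HRS-MBP the ratio was 0.377 and 0.209, a difference of 0.18 from PBS-only legs (exact permutation p = 0.80) and of -0.62 from HRS legs (exact permutation p = 0.238). With 1 library left out, these differences ran from -0.24 to 0.61 and from -1.04 to -0.20.

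**Figure D3:**
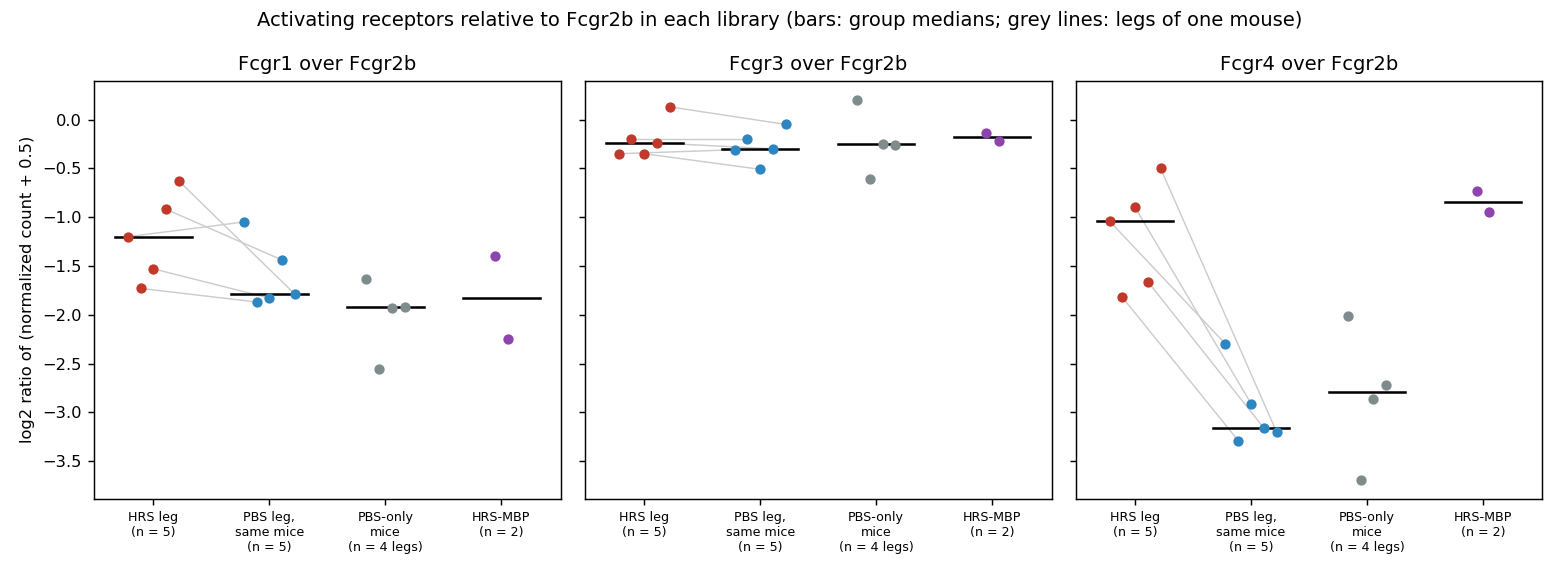
Log2 ratio of each activating receptor to *Fcgr2b* in the 16 libraries, with points for libraries, bars for group medians and grey lines joining the legs of 1 mouse. The *Fcgr4* ratio is higher in the HRS leg of all 5 mice (group means -1.18 against -2.97), whereas the *Fcgr3* ratio has group means of -0.20 and -0.27.

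Per kilobase of principal transcript, *Fcgr3* was the most abundant of the 4 Fc gamma receptors in each group, with medians of 55.0 normalized counts per kilobase in HRS legs, 6.49 in contralateral PBS legs, 4.85 in PBS-only legs and 113 in HRS-MBP. *Fcgr2b* followed in the PBS groups at 2.88 and 2.48, ahead of *Fcgr1* at 1.04 and 0.589 and *Fcgr4* at 0.510 and 0.511. In HRS legs *Fcgr2b* (24.7, range 5.95 to 48.0) and *Fcgr4* (21.8, range 11.7 to 72.5) overlapped, and *Fcgr1* was at 12.3. In HRS-MBP the 2 values of *Fcgr4* (71.0 and 81.3) were above those of *Fcgr2b* (41.8 and 55.9). *Fcgrt* had 41.3 per kilobase in contralateral PBS legs, the highest of the 6 genes there, and 46.7 in HRS legs, where *Fcer1g* was at 108.

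As a share of the summed level per kilobase of the 4 receptors, *Fcgr4* made up 17.6% to 30% in HRS legs, 29.1% to 30.3% in HRS-MBP, 4.36% to 8.80% in contralateral PBS legs and 2.84% to 8.76% in PBS-only legs. The share of *Fcgr2b* was 14.9% to 22.3% in HRS legs and 24.6% to 29.1% in contralateral PBS legs, and that of *Fcgr3* was 40.8% to 51.0% and 51.6% to 62.2%. In PBS-only legs *Fcgr2b* made up 20.8% to 34.1% and *Fcgr3* 57.1% to 63.8%. For *Fcgr4*, *Fcgr2b* and *Fcgr3* the HRS and contralateral ranges did not overlap, whereas the *Fcgr2b* range of PBS-only legs overlapped that of HRS legs. The share of *Fcgr1* was 9.09% to 14.9% in HRS and 8.61% to 14.7% in contralateral legs, with overlap, 5.93% to 8.09% in PBS-only legs and 5.72% to 9.21% in HRS-MBP, which overlapped both the PBS-only and the HRS legs. In HRS-MBP *Fcgr2b* made up 17.9% to 20% and *Fcgr3* 42.6% to 45.1%. Shares add up to the whole, so the lower shares of *Fcgr2b* and *Fcgr3* are not falls in their level.

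**Figure D4:**
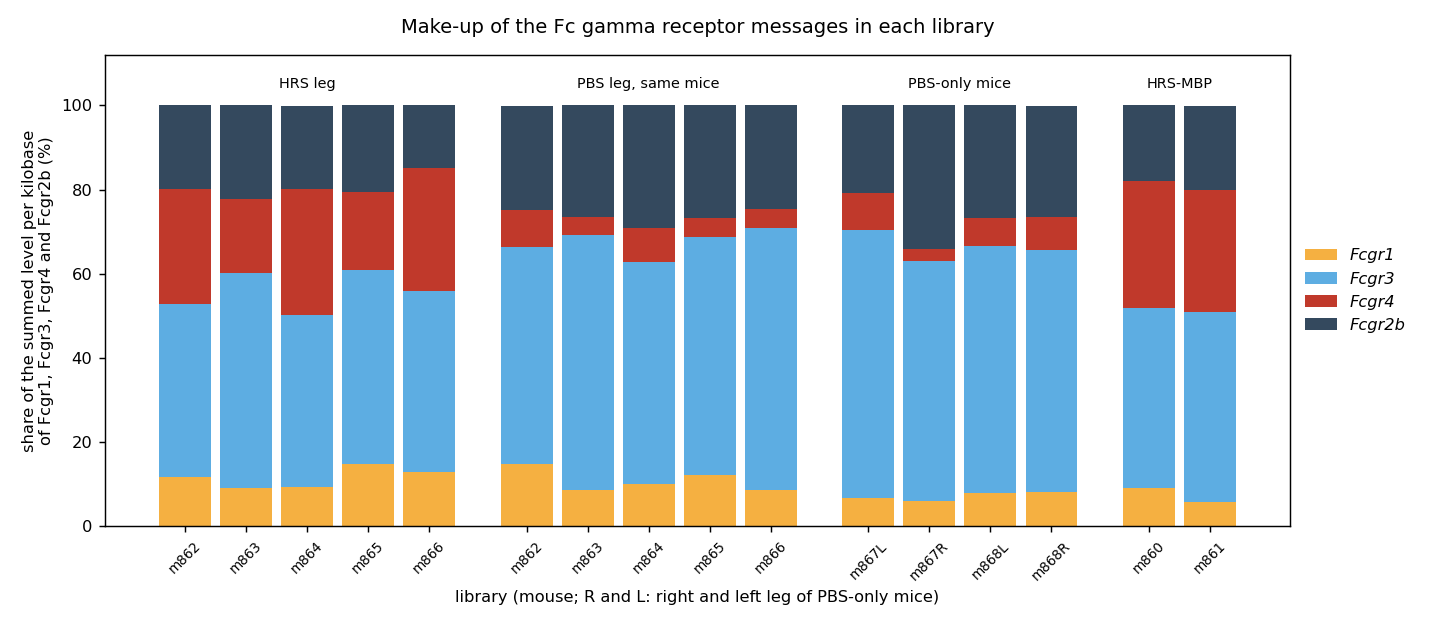
Share of each receptor in the summed level per kilobase of *Fcgr1*, *Fcgr3*, *Fcgr4* and *Fcgr2b*, as 1 stacked bar per library. The *Fcgr4* part spans 17.6% to 30% in HRS legs and 4.36% to 8.80% in the PBS legs of the same mice.

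Marker lists of most leukocyte types held genes that were called higher in the same libraries, where 16.9% of all tested genes were, whereas most mast cell markers were not called. All 9 macrophage markers were called higher in HRS than in contralateral PBS legs, and their summed level was 555 to 2590 normalized counts in HRS legs, 97.0 to 238 in contralateral PBS legs, 76.9 to 158 in PBS-only legs and 2710 to 2810 in HRS-MBP. Of the monocyte markers 5 of 6 were called higher, of the tested neutrophil markers 7 of 7, of the NK cell markers 5 of 5, of the dendritic cell markers 4 of 5, of the T cell markers 5 of 5, of the tested B cell markers 4 of 5 and of the tested plasma cell markers 3 of 4. Some of these markers, such as *Chil3*, *Retnlg*, *Klra8*, *Cd8a* and *Pax5*, lay under 0.5 in every PBS library. They passed the filter only through the HRS and HRS-MBP libraries, so these counts are partly set by the filter. *Ly6g*, a defining neutrophil marker, was listed at 0 in all PBS libraries and at 0.270 or less in HRS legs. None of 6 endothelial markers was called, with sums of 298 to 360 in HRS legs and 286 to 347 in contralateral PBS legs, and of 7 muscle fibre markers 4 were called lower. In HRS-MBP against PBS-only legs 2 of the 6 endothelial markers were called lower, *Kdr* at -1.12 and *Cldn5* at -1.08. Of 5 tested mast cell markers, cells that also use the *Fcer1g* chain, 1 was called higher (*Kit*, at 1.20).

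Levels were also set per 1000 normalized counts of the summed macrophage markers, as a description with no test. On that scale *Fcgr2b* had a median of 57.2 in HRS legs (range 38.0 to 65.8) and 48.8 in contralateral PBS legs (44.1 to 56.1), and *Fcgr3* 49.7 (41.7 to 51.4) and 41.2 (38.8 to 42.5). In PBS-only legs *Fcgr2b* was at 49.2 to 68.3 and *Fcgr3* at 43.4 to 57.5. For both genes the HRS legs overlapped both PBS groups. *Fcgr4* had 26.5 (16 to 35.2) against 2.94 (2.77 to 6.61), with no overlap, and was at 32.9 and 36.3 in HRS-MBP and 2.02 to 7.36 in PBS-only legs. *Fcer1g* had 54.7 (44.7 to 59.4) against 24.2 (20.7 to 33.8), also with no overlap, and *Fcgr1* had 23.9 (17.0 to 31.3) against 14.1 (11.3 to 22.8), with overlap. *Fcgrt* went the other way, at 57.8 (36.6 to 119) against 432 (278 to 676). The part of other cell types that carry these receptors in these values was not tested.

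Genes that act after the receptors were grouped into lists and counted beside the median of all tested genes, which was 0.08 on the log2 scale for HRS against contralateral PBS legs. Of 23 genes of ITAM signalling 21 were called higher, beside 16.9% of all tested genes, and none lower. The median log2 fold change of the list was 2.73. The called genes ran from *Gab2*, a docking protein, at 1.37 to the Src family kinase *Fgr* at 4.42. *Syk*, the kinase that docks on the phosphorylated ITAM, was at 25.6 to 119 normalized counts in HRS legs and 3.49 to 11.1 in PBS legs (log2 fold change 3.17, limma adjusted p = 1.09e-05). *Lyn*, which phosphorylates both ITAM and ITIM, had 2.42. The adaptors *Blnk* at 0.95 and *Bcl10* at 0.90 had adjusted p values under 0.05 but missed the fold threshold.

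The inhibitory side was counted in the same way. Of 16 phosphatases and ITIM receptors 14 were called higher, beside 16.9% of all tested genes, and none lower. The median was 3.31, and the called genes ran from the adaptor *Dok1* at 2.19 to the lectin *Clec12a* at 3.96. *Cd22* lay under 0.5 in every PBS library and passed the filter only through the HRS and HRS-MBP libraries. *Inpp5d*, which encodes SHIP1, was at 18.0 to 72.6 in HRS legs and 2.28 to 8.00 in PBS legs (log2 fold change 2.79, limma adjusted p = 1.25e-05), and *Ptpn6*, which encodes SHP-1, at 30.9 to 153 and 1.67 to 5.96 (3.89, limma adjusted p = 2.43e-06). Their widely expressed relatives were not called: *Inppl1* (SHIP2) had -0.08 and *Ptpn11* (SHP-2) -0.26. The limma adjusted p of *Ptpn11* was 0.0355, so it missed only the fold threshold. In the HRS-MBP libraries against PBS-only legs 23 of 23 ITAM genes and 14 of 16 inhibitory genes were called higher, beside 20.7% of all tested genes. The medians were 3.96 and 4.35, beside 0.11 over all tested genes. In contralateral PBS against PBS-only legs, where 0.00609% of all tested genes were called, and in HRS-MBP against HRS legs, where 0.463% were, none of either list was. The medians between HRS-MBP and HRS legs were 0.95 for the ITAM list and 1.01 for the inhibitory list, beside -0.03 over all tested genes.

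Other receptors that signal through *Fcer1g* moved with it. Of 8 such genes 5 were tested and all 5 were called higher, beside 16.9% of all tested genes. They ran from *Ncr1*, an NK cell receptor, at 2.12 to *Clec4e*, the glycolipid receptor Mincle, at 5.25. *Oscar*, *Gp6* and *Fcer1a* were under the filter. Among 7 other signalling adaptors 6 were called higher, from the B cell chain *Cd79a* at 1.28 to *Tyrobp* (DAP12) at 3.45, and the T cell chain *Cd247* at 0.64 was not called. Among the 6, *Hcst* (DAP10) at 1.75, binds PI3-kinase and carries no ITAM. Of 12 other Fc receptors 9 were under the filter, and the 3 tested were called higher: *Trim21*, a cytosolic antibody receptor, at 1.75, *Fcrla* at 1.22 and *Fcrls* at 1.05. *Fcrls* stood at -0.37 in HRS-MBP against PBS-only legs (limma adjusted p = 0.56). *Ncr1*, *Hcst*, *Cd3g* and *Fcrla* lay under 0.5 in every PBS library. They passed the filter only through the HRS and HRS-MBP libraries, so the counts in this paragraph are partly set by the filter.

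The IgG heavy chain genes, which encode the ligand, were called higher in 4 of 4 cases, beside 16.9% of all tested genes. *Ighg2c*, a ligand of *Fcgr4*, was at 12.5 to 500 normalized counts in HRS legs, with a median of 28.1, and at 0.481 to 3.85 in contralateral PBS legs (log2 fold change 5.06, limma adjusted p = 0.000265). *Ighg2b* was at 14.1 to 92.0 and 0.0494 to 12.8 (4.89, limma adjusted p = 0.000122), so its groups just failed to overlap. *Ighg1* had 4.58 and *Ighg3* 4.76. In HRS-MBP *Ighg2c* reached 381 and 3480 and *Ighg2b* 253 and 1260, and the 2 libraries differed from each other more than for any receptor. None of the 4 was called between HRS-MBP and HRS legs, where 0.463% of tested genes were.

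*Fcgrt* stood beside a rise of its partner. *B2m*, the light chain of FcRn and of class I molecules, was at 503 to 1680 normalized counts in HRS legs and 117 to 282 in contralateral PBS legs (log2 fold change 2.39, limma adjusted p = 3.53e-05). The level of *Fcgrt* was 5.64% to 13.1% of that of *B2m* in HRS legs, 36.0% to 65.5% in contralateral PBS legs, 30% to 58.7% in PBS-only legs and 3.75% to 4.59% in HRS-MBP, not corrected for transcript length. Of 7 tested genes of FcRn assembly and trafficking 3 were called higher, beside 16.9% of all tested genes: *B2m*, *Cd74* at 3.28 and *Pdia3* at 1.65. The other 4 were not called: *Calr* at 0.83, *Canx* at 0.71, *Rab11fip5* at 0.67 and *Rab11a* at -0.06. *Calr*, *Canx* and *Rab11fip5* had limma adjusted p values under 0.05 but missed the fold threshold.

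Of 16 genes of phagocytosis 10 were called higher, beside 16.9% of all tested genes, and none lower, with a median of 2.95. The called genes ran from *Arpc1b*, an actin-branching subunit, at 2.06 to *Cybb*, the catalytic subunit of the phagocyte oxidase, at 4.52. The 6 that were not called are made in most cells: *Lamp2* at 0.87, *Cdc42* at 0.58, *Lamp1* at 0.13, *Rac1* at 0.03, *Rab5a* at -0.02 and *Rab7* at -0.43. *Lamp2*, *Cdc42* and *Rab7* had limma adjusted p values under 0.05 but missed the fold threshold.

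Across the 16 libraries the genes most like each member in log2 level were listed by Pearson correlation, as a description. The libraries share their groups, so the differences between groups enter every value. *Msr1*, a scavenger receptor, was closest to *Fcgr1* (r = 0.995), *C5ar1*, the receptor for complement C5a, to *Fcgr3* (0.998), *Itgal*, an integrin of leukocytes, to *Fcgr4* (0.996), *Lcp1*, a leukocyte actin-bundling protein, to *Fcer1g* (0.997) and *Trerf1* to *Fcgr2b* (0.995). The next genes for *Fcgr2b* were *Laptm5* and *Csf1r*, the receptor for the macrophage growth factor CSF1. The correlation of *Fcgrt* with the other members was 0.568 to 0.668, whereas those members correlated with each other at 0.967 to 0.994. After group means were removed, *Fcgr3* and *Fcgr2b* had the highest value of any pair (0.964) and *Fcgr4* and *Fcgrt* the lowest (0.237).

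The neighbours of the members on the chromosome did not all share their change. *Cfap126*, next to *Fcgr3* outside the receptor cluster, was not called at 0.50, nor were *Bola1* at -0.65 and *Txnip* at -0.73 beside *Fcgr1*. *Bola1* and *Txnip* had limma adjusted p values under 0.05 but missed the fold threshold. *Fcrla*, next to *Fcgr2b*, was called at 1.22. Beside *Fcgrt*, *Rcn3*, 769 bases away on the same strand, was called higher at 2.05 (limma adjusted p = 0.00123).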

How the data were processed

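Poly(A) RNA of 16 hamstring libraries was sequenced after strand-specific preparation on 3 Illumina platforms, with no statement of which library ran on which. The authors deposited a signal table of normalized counts, neither whole nor log-transformed. The submitters' processing notes name STAR 2.7.8a, limma and GRCm39 (mm39), whereas the gene positions of the table are those of GRCm38 (GENCODE M21). The counter, the annotation and the normalization are not given in the sources used here. Of low values (up to 20 steps, tolerance 0.02), 75.4% to 77.7% were whole multiples of a step, so reads were not recovered and no count model was run. Implied depths and read equivalents rest on that step, and a floor of 3 reads was 0.0324 to 0.364 normalized counts. No per-sample column was left unused.

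The members and lists were chosen with earlier results of these data known. Groups follow the titles and treatment labels. The 16414 of 26382 genes whose mean over the 16 libraries reached 0.5 were fitted on log2(value + 0.5) with limma 3.58.1 in R 4.3.3 (4 groups, eBayes with a mean trend), and called at an adjusted p under 0.05 with an absolute log2 fold change above 1. Fold changes on this scale understate changes of low genes. The 2 legs of a mouse carry the same mouse label, so the pairing of HRS and contralateral legs rests on mouse numbers. After removal of group means, the legs of m862 to m866 correlated at 0.12, 0.16, 0.097, -0.026 and -0.37. The mean was -0.0025 for legs of the same mouse and -0.0068 for legs of different mice, so the values themselves showed no pairing. p-values measure the spread between these libraries. Ratios were tested in Python 3.11.15 (numpy 2.4.6) with exact permutations. Levels per kilobase use the principal transcript of GENCODE M21. Genes were named by a rule: all members, the extremes and uncalled genes of each list, genes of direct role, the genes most like a member and its neighbours, some of which are not reported here. The fit was tested on simulated data. Marker genes named for a count of 1 or for a level of 0 were chosen after their values were seen. Alternatives covered the constant, the filter, scaling, weights, the variance trend, the fit, the block and each library left out.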

Additional observations from a re-analysis of the deposited data

Results flagged for a closer look

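Within the 4 PBS-only legs, *Fcgr2b* in the left leg of m867 lay apart from the others. It was at 3.79 normalized counts, 2.10 on the log2 scale with 0.5 added, and the nearest leg was at 3.15. This gap was 0.845 of the range of the group. It was the only such value among 27 groups of values examined, and at the 95% critical value chance marks about 1 group in 20. Without this leg no call of a member changed.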

How the results depend on the processing

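Among 55 results and 990 values under alternatives, no called value changed its direction. Some uncalled differences crossed 0, such as *Fcgr4* (down to -0.03) and *Fcgr2b* (down to -0.01) between contralateral and PBS-only legs. The count of 5 called members held under every alternative run for HRS against contralateral PBS (23), HRS against PBS-only (21) and HRS-MBP against PBS-only legs (18). The log2 fold change of *Fcgr4* in the first of these ran from 3.67 to 5.34, that of *Fcgr2b* from 2.68 to 3.43 and that of *Fcgrt* from 0.06 to 0.30, never called. Legs are paired by mouse: with mouse as a fixed replicate block 5 members were called (adjusted p from 0.000516 for *Fcgr4* to 0.00401 for *Fcgr2b*), with mouse as a random replicate block also 5, and the block changed no call of a member. Between HRS-MBP and HRS legs 2 members (*Fcgr4* and *Fcer1g*) were called with array weights, and 0 to 2 when 1 library was left out, the 2 without the HRS leg of m864. The genes called there ranged from 4 to 886, with 76 in the fit reported. Between contralateral and PBS-only legs 0 to 10 genes were called, with 1 in the fit reported. The cause was not tested. The *Fcgr4* to *Fcgr2b* difference between HRS and contralateral PBS legs, not past the threshold as reported, ran from 0.88 to 2.31 over its alternatives, with adjusted p up to 0.357, and from 1.62 to 1.96 with 1 library left out. It passed only by treatment label, at 1.82, a grouping chosen after seeing the data, adjusted over 3 tests and blind to shared mice. With 17 to 36 reads a library, *Fcgr4* is measured coarsely in contralateral PBS legs, and its fold there depends on the constant. The median over all genes moved from 0.08 to -0.16 under quantile normalization.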
